A study of Mus musculus with 8 samples.

Results

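Some barcodes of the sorted endothelial libraries carried RNA of endothelial genes and of adipocyte genes at once, and these double-marker barcodes are described here. A barcode marks 1 droplet of the single-cell assay. The members were chosen by their measured UMI counts. A barcode was taken as double-marker when at least 3 of the adipocyte genes Adipoq, Cfd, Retn, Cidec, Car3 and Adig and at least 2 of the endothelial genes Pecam1, Cdh5, Cldn5 and Egfl7 each had 1 or more UMIs (counted RNA molecules), and the pan-leukocyte gene Ptprc had 0. Of 23996 barcodes past the filters in 8 libraries, 4514 (18.8%) met this rule. They were compared with 14331 endothelial-only barcodes, which met the endothelial condition and not the adipocyte one, and with 737 adipocyte-only barcodes, which met the adipocyte condition and not the endothelial one, all without Ptprc.

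All mice were male and carried ROSA26-eYFP+/+ and Cdh5-CreERT2+, so that tamoxifen turned on a yellow fluorescent protein in cells expressing Cdh5. Every group, chow included, ate tamoxifen diet for 2 weeks from 6 weeks of age. Then, at 8 weeks of age, they were put for 12 to 13 weeks on chow with 5.8% fat or on high fat diet with 60%. The 4 groups are mesentery on chow, mesentery on high fat diet, epididymal adipose on chow and epididymal adipose on high fat diet. Each library is a pool of tissue from 6 mice, and each group has 2 libraries, called runs A and B because the experiment was done again. The reporter labels cells by Cdh5 only, and its transcript is in neither feature list, so the sort could not be checked on it.

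Capillaries of fat tissue lie against adipocytes and pass fatty acids to them: Lpl, made by the adipocyte, is held on the capillary wall by Gpihbp1 and frees fatty acids from lipoproteins, and Cd36 and Fabp4 carry them onward. Capillary endothelium and adipocytes therefore share several genes of lipid handling, Fabp4, Cd36 and Pparg among them. The adipocyte genes of the rule are not of this kind: Adipoq (adiponectin), Cfd (adipsin) and Retn (resistin) are secreted by adipocytes, Cidec builds large lipid droplets, and Car3 and Adig are abundant in fat cells. On the endothelial side, Pecam1, Cdh5 (VE-cadherin) and Cldn5 (claudin 5) are junction proteins and Egfl7 is a secreted endothelial factor.

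The libraries differed strongly, and 2 of them held nearly all of the members. Total UMIs were 3461360 to 6714473 in run A and 18829960 to 36779289 in run B, and median UMIs per barcode past the filters were 1448 to 3441 and 3426 to 4700. Barcodes over the 10% limit on mitochondrial UMIs were 22.8 to 30.8% per library in run A and 5.36 to 8.85% in run B. Run A held 11 double-marker barcodes and run B 4503. The 2 chow libraries of run B held 4373, or 96.9% of all. Any 2 libraries shared 0 to 10 barcode sequences, and 1 shared sequence was double-marker in both libraries of its pair. The part of shared sequences in these numbers was not tested.

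Double-marker barcodes were most frequent in the chow libraries of run B. In mesentery on chow they were 2 of 1224 barcodes meeting the endothelial condition in run A (0.163%) and 1286 of 4024 in run B (32.0%, exact 95% binomial interval 30.5 to 33.4%). In mesentery on high fat diet they were 0 of 668 in run A, which allows a share of up to 0.449%, and 105 of 2533 in run B (4.15%, interval 3.4 to 5.0%). In adipose on chow they were 6 of 1209 in run A (0.496%) and 3087 of 5018 in run B (61.5%, interval 60.2 to 62.9%). In adipose on high fat diet they were 3 of 920 in run A (0.326%) and 25 of 3249 in run B (0.769%, interval 0.499 to 1.13%). High fat diet thus had the lower share in 4 of 4 pairs of libraries of the same tissue and run. The run A pairs rest on 2 against 0 and 6 against 3 members. Their exact intervals overlap, so they resolve no diet difference. The share was higher in run B than in run A in all 4 groups, with overlapping intervals in adipose on high fat diet. These intervals cover counting error only, and the spread between the runs is far wider.

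Diet and tissue were tested over libraries, on the logit of the share. The mean logit was -2.92 on chow and -5.19 on high fat diet, a difference of -2.26 (exact permutation test, two-sided p = 0.278 over 36 arrangements, n = 4 libraries per diet, smallest possible p 0.0556). The labels describe the runs as repeats of one experiment, so the run letter pairs the libraries. Permuting within run gave an exact p of 0.125, the smallest that this design allows. Within run A the difference was -0.677 and within run B -3.84. The run A value rests on the 11 members of that run, and the p within run counts its direction all the same. For tissue the mean logit was -3.79 in adipose and -4.32 in mesentery, a difference of 0.53 (exact permutation p = 0.833, and 0.625 within run). Adipose was higher in 3 of 4 pairs, but the difference was 1.3 within run A and -0.239 within run B, so the direction was not shared by the runs. With 0.0556 and 0.125 as the smallest possible values, neither test of diet or tissue could reach 0.05 in this design. Each library is a pool of mice, and the 2 libraries of a group come from different runs. The p-values over 36 arrangements therefore set a difference against the spread of pools and runs together, which cannot be told apart. Leaving out 1 library moved the diet difference between -3.683 and -0.8383 and the tissue difference between -0.8922 and 1.953.

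Depth raises the chance of finding a marker, so each barcode was also thinned to 1000 UMIs. The share then was 18.7% in mesentery on chow B, 0.631% in mesentery on high fat diet B, 32.1% in adipose on chow B and 0.111% in adipose on high fat diet B. In run A it was 0.102% in mesentery on chow and 0% in the other 3 libraries. The order of the run B libraries was unchanged, and the tissue difference changed sign, to -0.4554 on the logit scale. Thinning left out 488 and 467 barcodes in the adipose libraries of run A and 56 to 562 in the others.

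**Figure D1:**
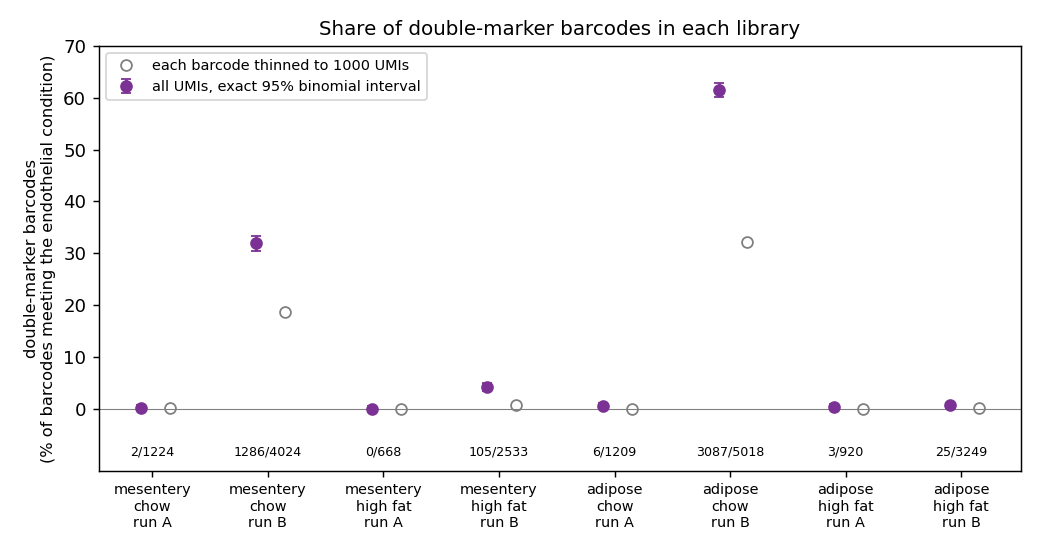
The y axis gives double-marker barcodes as a percentage of the barcodes that meet the endothelial condition, for each of the 8 libraries, with the counts printed at the bottom. Filled points use all UMIs, with exact 95% binomial intervals, and open points use each barcode thinned to 1000 UMIs. Mesentery on chow B (32.0%) and adipose on chow B (61.5%) stand above the other 6 libraries, which lie at or below 4.15%.

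The amount of adipocyte RNA per member was small and formed a continuum. The 6 adipocyte genes together made up a median of 0.662% of a member's UMIs in mesentery on chow B, with quartiles of 0.281 and 1.48% and extremes of 0.0153 and 10.02%. Adipose on chow B had a median of 0.566%, with quartiles of 0.275 and 1.15%. The high fat libraries of run B were lower, at 0.0943% in mesentery and 0.143% in adipose. Adipocyte-only barcodes had far more, at a median of 5.12% in mesentery on chow B and 4.58% in adipose on chow B. Members also held more RNA in all than adipocyte-only barcodes: medians were 4322 and 1170 UMIs in mesentery on chow B, and 6120 and 1141 in adipose on chow B. Endothelial-only barcodes lay nearer to the members, at 3634 and 3937 UMIs. The 6 genes chose the classes, and members had to meet both conditions, which deeper barcodes do more often. These six-gene shares and depths therefore depend on the rule and are given as levels only. Median mitochondrial shares were 3.29 and 3.05% in members, 2.46 and 2.64% in endothelial-only and 5.11 and 5.19% in adipocyte-only barcodes of these 2 libraries.

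**Figure D2:**
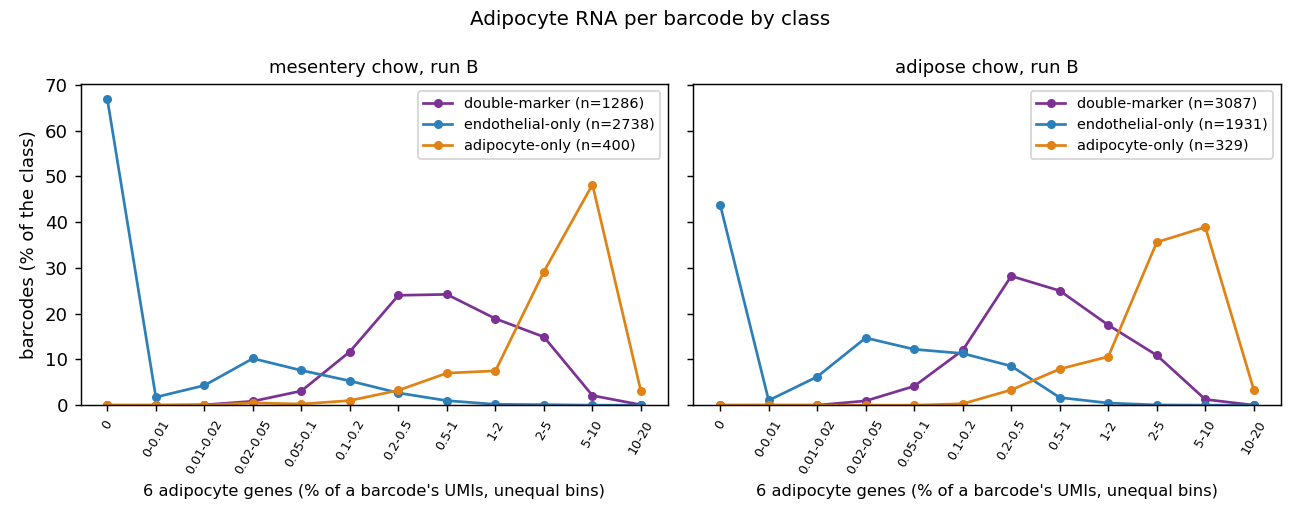
The x axis bins barcodes by the percentage of their UMIs that came from the 6 adipocyte genes, in unequal bins, and the y axis gives the percentage of each class in the bin, for the 2 chow libraries of run B. Members peak between 0.2 and 1% and overlap both other classes. In mesentery 48.2% of the adipocyte-only barcodes lie between 5 and 10%, and 66.9% of the endothelial-only barcodes have none. The 6 genes chose the classes, so the places of the curves depend on the rule.

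The rule draws a line through this continuum. In mesentery on chow B, 345 barcodes meeting the endothelial condition had 2 of the 6 adipocyte genes, with a median of 3 UMIs of them (0.113%), just outside the rule. Just inside it, 363 barcodes had 3 of the genes, with a median of 8 UMIs (0.253%), and 325 had all 6, with a median of 116 UMIs (1.75%). The numbers in adipose on chow B were 562 barcodes with 2 genes (median 4 UMIs), 657 with 3 (median 10 UMIs) and 879 with 6 (median 104 UMIs). At the other border, 118 members of mesentery on chow B had only 2 of the endothelial genes and a six-gene share of 1.57%, while 913 had all 4 and a share of 0.569%. The 151 adipocyte-only barcodes there with 1 endothelial gene had 4.04%, and the 249 with none 5.9%. Median depth went up from 1129 to 5281 UMIs along the same steps, and both values belong to the rule's own genes, so this describes the border only.

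The genes of the rule themselves are given as levels only, since they chose the members. Levels are in CPM, a gene's UMIs per 1000000 UMIs summed over a class in a library. In mesentery on chow B, Cfd stood at 4459 CPM and Car3 at 4099 in members, followed by Retn (804), Adipoq (585), Cidec (296) and Adig (172). Car3 was first in adipose on chow B, at 4080 CPM, then Cfd (2640), Retn (691), Adipoq (420), Cidec (267) and Adig (107). Among members of mesentery on chow B, 98.8% had Cfd, 99.1% Car3, 80.4% Retn, 70.6% Adipoq, 54.0% Cidec and 42.6% Adig. Abundant genes therefore met the rule more often than Adig or Cidec did. The endothelial genes of the rule were found in similar shares of members and of endothelial-only barcodes of that library, at 91.3 and 92.9% for Pecam1, 94.7 and 92.4% for Cdh5 and 93.2 and 93.3% for Egfl7, with Cldn5 at 82.7 and 71.9%.

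The mix of the 6 genes is likewise a description of genes that chose the members. In mesentery on chow B, Cfd gave 42.8% of the six-gene UMIs of members and 42.3% of those of adipocyte-only barcodes, Car3 39.4 and 40.4%, and Adipoq 5.61 and 5.12%. In adipose on chow B, Cfd gave 32.2 and 34.2%, Car3 49.7 and 48.5%, and Adipoq 5.12 and 5.1%. Cfd was ahead of Car3 in mesentery and behind it in adipose, in both classes. On high fat diet in run B, Cfd gave 9.77% of the six-gene UMIs of members in mesentery and 15.4% in adipose, Cidec 12.0 and 13.9%, and Adipoq 12.1 and 8.65%. The endothelial-only barcodes of these libraries had 4.69 and 7.55% for Cfd, 13.3 and 20.4% for Cidec, and 8.07 and 5.84% for Adipoq. The 6 adipocyte-only barcodes of mesentery on high fat diet B had 6.0% for Cfd, 6.0% for Cidec and 12.0% for Adipoq, over 50 UMIs in all. Members there had a median of only 7 six-gene UMIs in mesentery and 8 in adipose, and the rule asks for 3 different genes, so their mix cannot be set against that of the chow libraries.

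Genes outside the rule were next compared between members and endothelial-only barcodes, in the 4 run B libraries, which were the only ones with at least 10 members. Both classes were cut from the same libraries by the rule, so this is a description without a test. A gene counted as higher or lower when the log2 ratio of CPM (with 1 CPM added to each level) was past 1 in the same direction in all 4 libraries. Of 8975 genes at 10 CPM or more, 55 (0.613%) were higher in members, 49 of them outside the rule, and 163 (1.82%) were lower. The genes furthest up outside the rule were Hp (haptoglobin, mean log2 ratio 4.22), Rbp4 (the retinol carrier, 4.07), Pck1 (glycerol synthesis in fat cells, 4.06) and Ces1d (a triglyceride hydrolase, 4.0).

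Of 12 listed adipocyte genes outside the rule 11 were measured, and 7 were higher in members in all 4 libraries, with a median log2 ratio of 3.17 against -0.04 over all genes counted. Cdo1, an enzyme of cysteine breakdown, stood at 375.5 CPM in members and 11.3 in endothelial-only barcodes of mesentery on chow B, and at 287 and 19.8 CPM in adipose on chow B. On high fat diet Cdo1 was at 17.1 and 5.11 CPM in mesentery and 18.9 and 2.77 CPM in adipose. Plin4, a lipid droplet coat protein, was at 78.4, 13.7, 77.9 and 82.0 CPM in members of mesentery on chow, mesentery on high fat diet, adipose on chow and adipose on high fat diet, and at 2.02 to 6.46 CPM in endothelial-only barcodes. Nnat was at 140, 36.5, 160 and 31.5 CPM in members in the same order, and at 2.45 to 12.0 CPM in the others. Lep (leptin), Acvr1c, Adrb3 (the beta-3 adrenergic receptor) and Mrap were the other 4. Some values rest on few molecules: adipose on high fat diet had 25 members, and their Cdo1 was 3 UMIs and their Mrap 1 UMI.

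The other 4 adipocyte genes did not pass in all libraries. Plin1, the main droplet coat protein of adipocytes, was at 162 and 2.64 CPM in mesentery on chow B and 123 and 6.68 in adipose on chow B, but at 12.6 (2 UMIs) and 7.55 in adipose on high fat diet B. Thrsp and Sncg had a level of their own in endothelial-only barcodes, 128 to 149 CPM for Thrsp and 122 to 170 CPM for Sncg. Thrsp was at 1292 CPM in members of mesentery on chow B and 139 in those of adipose on high fat diet B. Cebpa, a transcription factor of adipocytes, had log2 ratios of 2.89, 0.88, 2.78 and 1.37.

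Genes of lipid synthesis were partly raised in members. Of 16 listed genes 15 passed the level needed, and 6 were higher in all 4 libraries: Scd1 (fatty acid desaturase), Fasn (fatty acid synthase), Dgat2 (the last step of triglyceride synthesis), Agpat2, Gpd1 and Pck1. Scd1 was at 1904 and 48.4 CPM in members and endothelial-only barcodes of mesentery on chow B, 149 and 31.5 in mesentery on high fat diet, 953 and 75.2 in adipose on chow and 486 and 24.3 in adipose on high fat diet. Fasn was at 554 and 22.4 CPM in mesentery on chow B and 168 and 14.7 in adipose on chow B. Acly, which makes acetyl-CoA for lipid synthesis, was at 119 CPM in both classes of mesentery on high fat diet B. The list's median was 1.42.

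Of 7 genes of lipolysis and droplet export, 2 were higher in all 4 libraries, Ces1d and G0s2, an inhibitor of the lipase Pnpla2. G0s2 was at 278 and 20.4 CPM in mesentery on chow B and 171 and 20.9 in adipose on chow B. The lipases Lipe and Pnpla2 had log2 ratios of 2.12 and 2.08 in mesentery on chow B and of 0.59 and 0.46 in adipose on high fat diet B. Mgll and the glycerol channel Aqp7 were abundant in both classes, at 2227 and 1311 CPM and at 401 and 236 CPM in adipose on chow B.

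Genes of lipid uptake, which capillaries and adipocytes share, differed less. Of 9 genes, 1 was higher in all 4 libraries, Acsl1, which activates fatty acids. Fabp4 made up 44270 CPM in members and 10400 in endothelial-only barcodes of mesentery on chow B, but 58840 and 52540 CPM in adipose on high fat diet B. Lpl was at 1194 and 105 CPM in mesentery on chow B, 768 and 374 in mesentery on high fat diet B, 1313 and 306 in adipose on chow B and 845 and 521 in adipose on high fat diet B. Of 6 genes of beige and brown fat, Cox8b alone passed the level needed and was not called. Ucp1, which defines brown fat, was at 0 UMIs in members of 3 of these libraries and at 0.0403 CPM in adipose on chow B.

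Of 18 general endothelial genes outside the rule, 0 were higher and 0 lower in members than in endothelial-only barcodes. Over all genes counted the shares were 0.613 and 1.82%, so counts of 0 do not set this list apart. The mean log2 ratios of the 18 genes ran from -0.56 to 0.55, with a median of -0.03. Their summed level was 11700 and 11240 CPM in mesentery on chow B, 12960 and 13070 in mesentery on high fat diet B, 12290 and 13210 in adipose on chow B and 12490 and 12110 in adipose on high fat diet B. Kdr, the main VEGF receptor, was at 894 and 523 CPM in mesentery on chow B and 998 and 701 in adipose on chow B. Ecscr, an endothelial surface protein, was the lowest, with log2 ratios of -0.77 to -0.38. The lists of single vessel types differed in their counts. All 6 measured lymphatic genes were lower, Prox1, Lyve1, Mmrn1, Reln, Pdpn and Flt4, with a median of -4.77, or -3.43 with the 5 genes that had 0 UMIs in a library set to the level of 3 UMIs there. Of 8 venous genes 4 were lower (Ackr1, Selp, Vwf, Lrg1; median -1.94), and of 10 arterial genes 2 (Gja5, Fbln5; median -0.78). Of the 8 capillary genes 0 were higher and 0 lower in all 4 libraries, with a median of 0.79. Rgcc was at 897 and 199 CPM in mesentery on chow B and 979 and 494 in adipose on chow B. Against adipocyte-only barcodes of the chow libraries of run B, 6 of the 8 capillary genes were higher in members, but Rgcc and Timp4 were not. Over all 9188 genes counted in that comparison 17.0% were higher in members.

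Endothelial barcodes were then marked as arterial, capillary, venous or lymphatic where at least 2 genes of 1 list were found and that list had the most, a step chosen after seeing the data. Cd36 was left out of the capillary list for this. Capillary-marked barcodes made up 80.7, 81.9, 83.8 and 80.0% of the members of mesentery on chow, mesentery on high fat diet, adipose on chow and adipose on high fat diet in run B. Of the endothelial-only barcodes they made up 23.2, 57.3, 49.4 and 60.7%. The mark also came with adipocyte RNA where the endothelial genes of the rule were few or absent. Of the adipocyte-only barcodes with none of these genes, 46.6% of 249 in mesentery on chow B and 50.0% of 166 in adipose on chow B were capillary-marked, and with 1 of them 48.3 and 77.9%. The mark therefore does not tell which cells the capillary RNA of a member came from.

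Among barcodes of mesentery on chow B that met the endothelial condition, 62.1% of 1672 capillary-marked ones were members (exact 95% interval 59.7 to 64.4%). The share was 11.9% of 724 arterial-marked (9.61 to 14.5%), 6.79% of 928 venous-marked (5.26 to 8.6%) and 3.42% of 263 lymphatic-marked barcodes (1.58 to 6.4%). Adipose on chow B had 73.1% of 3541 capillary-marked (71.6 to 74.5%), 41.2% of 668 arterial-marked (37.4 to 45.0%), 9.7% of 330 venous-marked (6.73 to 13.4%) and 3.55% of 141 lymphatic-marked barcodes (1.16 to 8.08%). Barcodes with no subtype mark had 20.6% of 437 in mesentery (16.9 to 24.7%) and 55.6% of 338 in adipose (50.1 to 61.0%). The order of the 4 marks was the same in both libraries, and median depth did not follow it: 3329, 4271, 4658 and 3632 UMIs in mesentery and 4934, 6444, 5549 and 3925 in adipose. At 1000 UMIs each, 39.4% of capillary-marked and 2.56% of venous-marked barcodes of mesentery on chow B met the adipocyte condition, and 40.6 and 4.02% in adipose on chow B.

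Other kinds of cell were used as a reference, and their share depended on whether the barcode also met the endothelial condition. Leukocytes should lack adipocyte genes. Of 190 Ptprc-positive barcodes without the endothelial condition in mesentery on chow B, 3 met the adipocyte condition (1.58%, interval 0.327 to 4.54%), at a median of 3831 UMIs. Of 43 with the endothelial condition 16 did (37.2%, interval 23 to 53.3%), at a median of 6193 UMIs. The lymphatic-marked, venous-marked and arterial-marked shares of that library lie between these references. In adipose on chow B it was 0 of 26, which allows a share of up to 11.5%, and 7 of 21 (33.3%, interval 14.6 to 57.0%), at 4869.5 and 14144 UMIs.

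Mural barcodes hold RNA of the smooth muscle cells and pericytes of the vessel wall. Without the endothelial condition, they met the adipocyte one in 8 of 41 cases in mesentery on chow B (19.5%, interval 8.82 to 34.9%) and 18 of 83 in adipose on chow B (21.7%, 13.4 to 32.1%). With the endothelial condition they did so in 83 of 133 (62.4%, 53.6 to 70.7%) and 302 of 395 (76.5%, 72.0 to 80.6%). Fibroblast-like barcodes met it in 16 of 194 (8.25%) and 30 of 130 (23.1%) without the endothelial condition. With it they did so in 57 of 87 (65.5%, 54.6 to 75.4%) and 252 of 284 (88.7%, 84.5 to 92.2%). These shares stood at or above that of capillary-marked barcodes, with overlapping intervals except for fibroblast-like barcodes of adipose. Barcodes with the endothelial condition overlap with the marked ones above, and they were deeper: medians of mural barcodes were 4522 and 7638 UMIs without and with it in mesentery and 3529 and 10704 in adipose, and those of fibroblast-like ones 4629.5 and 8461, then 3200.5 and 12697. The part of depth and of droplets with several cells in these shares was not tested.

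**Figure D3:**
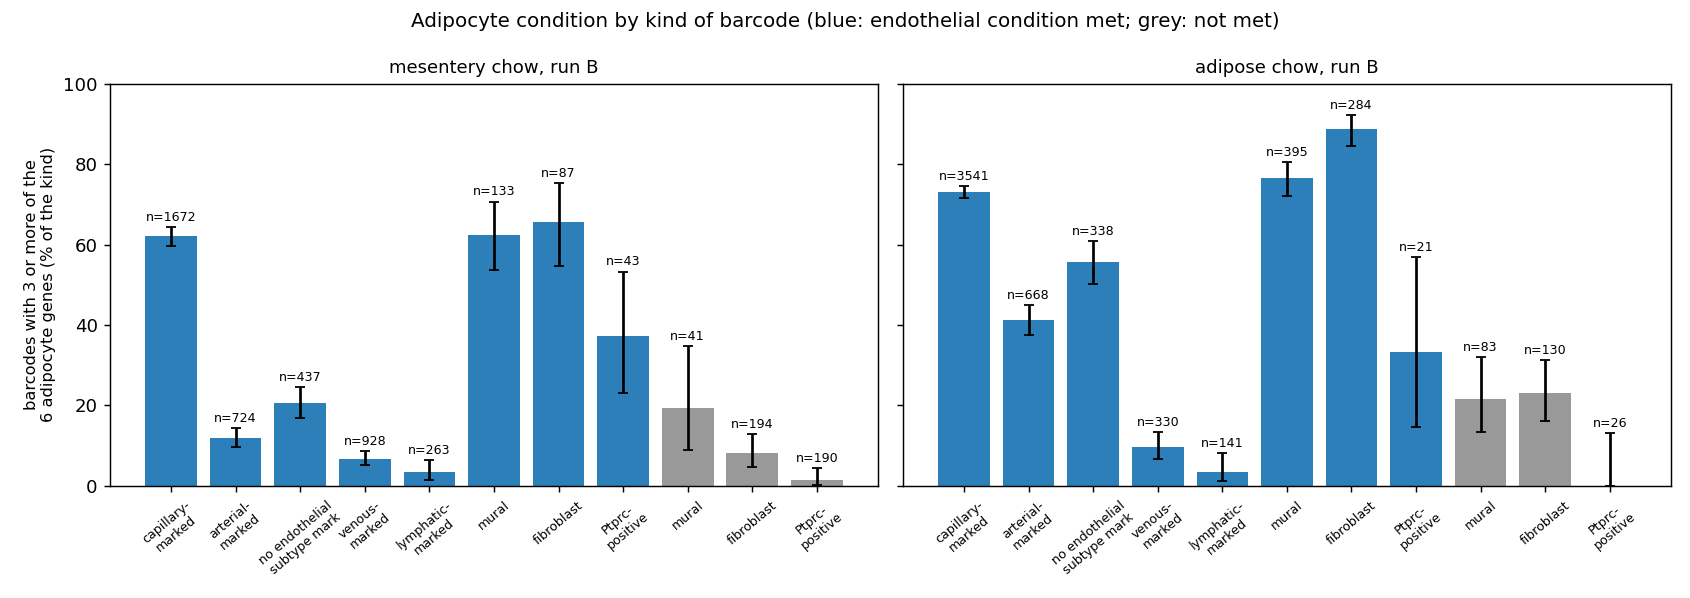
Bars give the percentage of each kind of barcode that meets the adipocyte condition in the 2 chow libraries of run B, with exact 95% binomial intervals and the number of barcodes above each bar. Blue bars meet the endothelial condition and grey bars do not, and the blue mural and fibroblast bars overlap in barcodes with the marked kinds. Capillary-marked barcodes (62.1 and 73.1%) are the highest of the 4 endothelial marks, and the blue mural and fibroblast bars reach 62.4 to 88.7%.

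Within capillary-marked barcodes the share of members also differed between the diets in run B and between the runs on chow. On high fat diet in run B, 86 of 1478 were members in mesentery (5.82%, interval 4.68 to 7.14%) and 20 of 1976 in adipose (1.01%, 0.619 to 1.56%), against 62.1 and 73.1% on chow. Run A held few capillary-marked barcodes, of which 2 of 33 were members in mesentery on chow (6.06%, interval 0.743 to 20.2%) and 4 of 35 in adipose on chow (11.4%, 3.2 to 26.7%). On high fat diet in run A it was 0 of 24, which allows up to 12.5%, and 1 of 107 (0.935%, 0.0237 to 5.1%). These counts resolve no run difference on high fat diet, and no diet difference in mesentery of run A. Capillary-marked barcodes were 2.54 to 11.6% of the endothelial-only barcodes in run A and 23.2 to 60.7% in run B. Over all barcodes past the filters the 6 genes made up 1.451 to 22.7 CPM in run A, 4708 and 6516 CPM in the chow libraries of run B, and 135 and 40.2 CPM in its high fat libraries. These are the rule's own genes, and members held 66.7% of their UMIs in mesentery on chow B and 87.5% in adipose on chow B, so this is no separate observation. Adipocyte-only barcodes numbered 400 in mesentery on chow B, 329 in adipose on chow B, 6 in mesentery on high fat diet B and 0 to 1 elsewhere. Whether the number of adipocyte-only barcodes has a part in the share of members was not tested.

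Within capillary-marked barcodes alone, a comparison added after seeing the data, members and endothelial-only barcodes were compared again. Of 8633 genes counted, 64 (0.741%) were higher in members in all 4 libraries and 1 (0.0116%) was lower. Of the 64, 23 were genes of the rule or of the lists of adipocytes, lipid synthesis and lipolysis, 2 were Acsl1 and Ighm, and 39 stood in no list, among them Hp, Rbp4, Mt1 (a metallothionein), Nnmt and Serpina3n, named after their values were seen. The median log2 ratio was -0.08 for the 8 capillary genes and 0.25 for the 6 venous genes that passed the level needed. The 1 lymphatic gene that passed had -0.41. These lists, Cd36 aside, set the mark in the same barcodes, which draws both classes together in them. Their medians here are therefore given as values only. Of 11 adipocyte genes outside the rule 7 were higher, with a median of 2.65, and 8 of 15 genes of lipid synthesis. Fabp4, Cd36, Mgll and Aqp7 had mean log2 ratios of 0.03, 0.08, 0.02 and -0.01. Lpl was at 0.96, and Acsl1 at 1.54, higher in all 4 libraries.

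**Figure D4:**
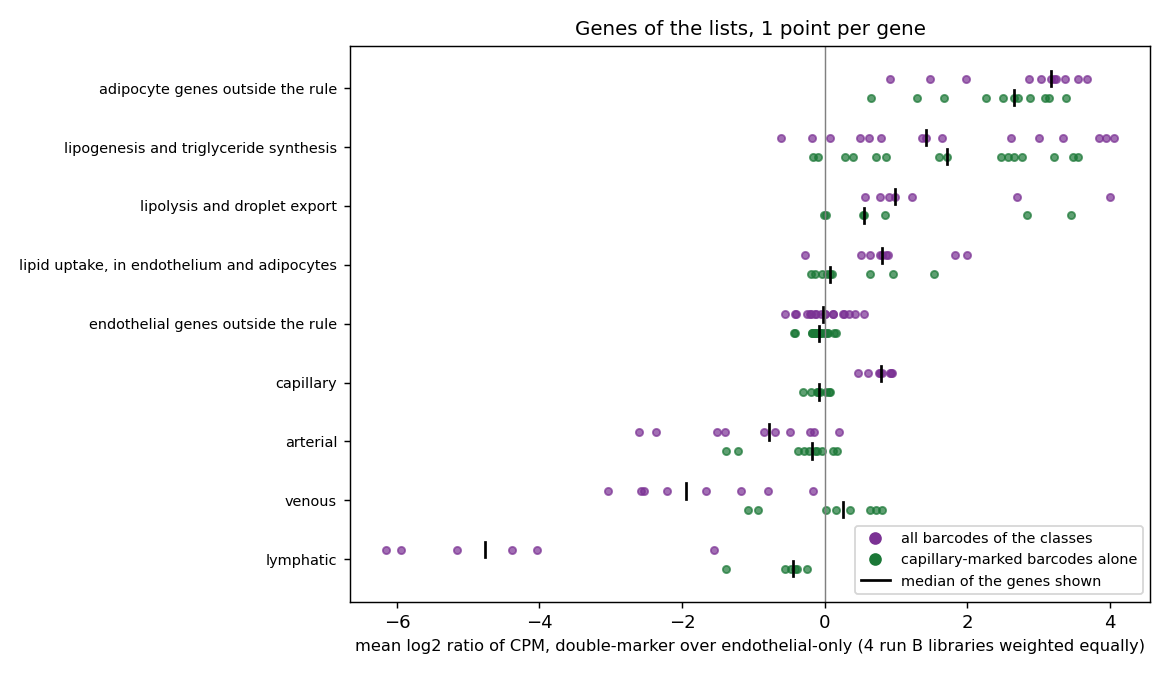
Each point is 1 gene, the x axis is its mean log2 ratio of CPM between double-marker and endothelial-only barcodes over the 4 run B libraries, and rows are gene lists. Purple points use all barcodes and green points capillary-marked barcodes alone, for the same genes. Adipocyte genes stay to the right in both, with medians of 3.17 and 2.65. The venous median goes from -1.94 to 0.25 and the capillary one from 0.79 to -0.08. The lists of vessel types set the capillary mark, so their green points depend on that choice.

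The comparison with adipocyte-only barcodes was possible in the 2 chow libraries of run B. Of 9188 genes counted, 1566 (17.0%) were higher in members in both and 844 (9.19%) lower. A call needed agreement in 2 libraries here and in 4 against endothelial-only barcodes, so these shares cannot be compared. Of 18 endothelial genes outside the rule 16 were higher in members, with a median log2 ratio of 3.03. Kdr was at 894 CPM in members and 64.2 in adipocyte-only barcodes of mesentery on chow B, and at 998 and 133 in adipose on chow B. Outside the rule the genes furthest up were Edn1 (endothelin 1, 198 and 4.28 CPM in mesentery on chow B) and Ceacam1 (116 and 5.7 CPM). All 11 adipocyte genes were lower in members, with a median of -2.12, as were 13 of 16 genes of lipid synthesis. Adipocyte-only barcodes were not free of endothelial RNA: the 18 genes summed to 2077 CPM in mesentery and 2899 in adipose, against 11700 and 12290 in members. Car4, a carbonic anhydrase of capillaries, was at 87.0 and 62.5 CPM in them.

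To compare the mix of adipocyte genes between the classes, each was set against the 6 genes of the rule. The UMIs above the endothelial-only level were counted per 100 such UMIs of the 6 genes, in members and in adipocyte-only barcodes. Genes entered with at least 20 UMIs in adipocyte-only barcodes and at least 2 times the endothelial-only level in members, so genes not raised in members were left out. In mesentery on chow B 30 genes outside the rule entered, of which Aqp7 had no ratio, the median ratio of the other 29 was 1.07, and 25 lay within 1.5 times of equality. In adipose on chow B the median was 1.08 over 26 genes, with 23 within 1.5 times. In an alternative added after seeing the data, genes entered by 2 times the endothelial-only level in adipocyte-only barcodes, whatever their level in members. Then 26 of 32 in mesentery lay within 1.5 times, with a median of 1.05 over 31, and Gpam had no ratio because members did not exceed the endothelial-only level. In adipose it was 24 of 28, with a median of 1.1. Plin1 stood at 1.56 per 100 in members and 1.57 in adipocyte-only barcodes of mesentery, and at 1.51 and 1.56 in adipose. Dgat2 stood at 2.29 and 2.18, and at 2.26 and 2.25. Cdo1 stood at 3.56 and 3.61, and at 3.45 and 3.08. The 2 libraries differed from each other in Thrsp (11.4 and 10.6 per 100 in mesentery, 5.65 and 4.93 in adipose) and in Fasn (5.2 and 3.95, then 1.97 and 1.47), and in each case members and adipocyte-only barcodes of a library were close. These values share their libraries, so they are a description.

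Some genes lay outside this range. Mgll, a monoglyceride lipase, was at 10.2 per 100 in members and 1.12 in adipocyte-only barcodes of mesentery, a ratio of 9.06, and Aqp7 at 2.54 against a level at or under that of endothelial-only barcodes. Both are expressed in capillaries, and within capillary-marked barcodes their mean log2 ratios were 0.02 and -0.01. Scd1 was above equality in both libraries, at 18.1 and 11.5 per 100 in mesentery (ratio 1.58) and 11.3 and 7.26 in adipose (1.56). Lipe was too, with ratios of 1.62 and 1.5. In mesentery Elovl6, a fatty acid elongase, was at 0.268 and 0.161 per 100 (1.66). In adipose Acaca, which makes malonyl-CoA, was at 0.454 and 0.257 (1.77) and Pnpla2 at 2.62 and 1.71 (1.53). The alternative entry added Srebf1 in mesentery (0.451) and Acly in adipose (2.08). The full endothelial-only level was taken off both classes, but adipocyte-only barcodes held less endothelial RNA. Their general endothelial genes outside the rule summed to 2077 against 11240 CPM in mesentery and 2899 against 13210 in adipose. This lowers the adipocyte-only value of genes with an endothelial level of their own, and its part in these ratios was not tested. By the first entry the lowest ratio in mesentery was that of Mlxipl, at 0.67, and in adipose that of G0s2, at 0.818.

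**Figure D5:**
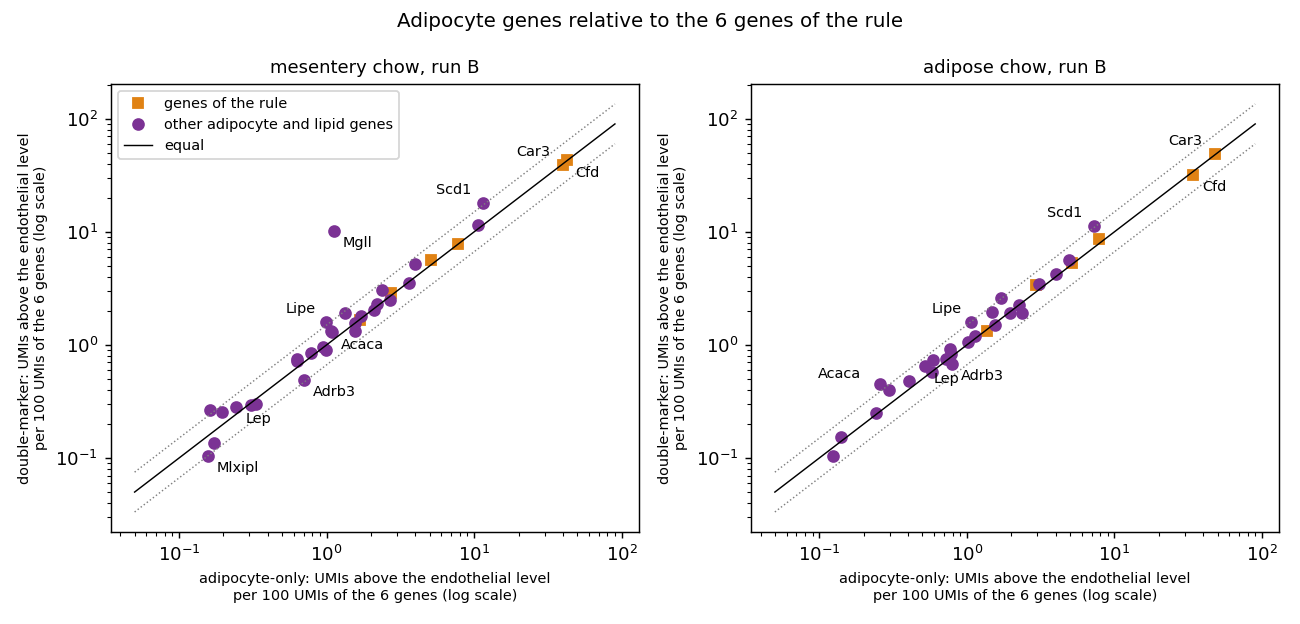
Both axes give UMIs above the endothelial-only level per 100 such UMIs of the 6 rule genes, on log scales, in adipocyte-only barcodes (x) and double-marker barcodes (y), for the 2 chow libraries of run B. Squares are genes of the rule, circles other adipocyte and lipid genes, the solid line is equality and the dotted lines are 1.5 times above and below it. Only genes raised in members are drawn. Of them 25 of 29 in mesentery and 23 of 26 in adipose lie between the dotted lines, and Mgll lies above them in mesentery.

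Classes were also set from UMIs drawn at random with a chance of 0.5 and levels read from the remaining UMIs of the barcode. The 6 genes were then at 11270 CPM in members and 390 in endothelial-only barcodes of mesentery on chow B. They were at 8646 and 897.5 CPM in adipose on chow B and at 1343 and 124 in mesentery on high fat diet B. Both sets of UMIs come from the same barcode, so this bears on counting noise only.

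Other kinds of RNA differed between the classes in some libraries, not always in the same direction, and are given as values. Haemoglobin and other red cell genes summed to 624 CPM in members, 184 in endothelial-only and 3716 in adipocyte-only barcodes of mesentery on chow B. In adipose on chow B they summed to 1555, 673 and 10110 CPM, but in adipose on high fat diet B to 177 CPM in members and 1674 in endothelial-only barcodes. Ighm, a gene of B cells, was higher in members in all 4 libraries, at 35.9 and 4.35 CPM in mesentery on chow B and 76.4 and 5.45 in adipose on chow B. In adipocyte-only barcodes it was at 188 and 411 CPM. Of 5 B cell genes Ighm alone passed the level needed. The 5 summed to 62.5 and 48.3 CPM in members and endothelial-only barcodes of mesentery on chow B, and to 76.5 and 6.23 in adipose on chow B. Within capillary-marked barcodes 2 passed, and the other had a mean log2 ratio of -0.6. Fibroblast genes summed to 580, 381 and 3984 CPM in the 3 classes of mesentery on chow B. The red cell genes had a median log2 ratio of 0.06 over all barcodes and -2.34 within capillary-marked ones. The part of these genes in the results was not tested.

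Called doublets were more frequent among members than among endothelial-only barcodes of the chow libraries of run B. Scrublet's own threshold called only 48 barcodes (0.2%) and so did not work, and the top-scoring 0.8% per 1000 barcodes of each library were taken instead, a threshold set after seeing this. By it 6.77% of members and 2.15% of endothelial-only barcodes were called in mesentery on chow B, and 9.59 and 1.71% in adipose on chow B. Adipocyte-only barcodes were called in 1.75 and 0% of cases. Ptprc-positive barcodes were called in 7.73 and 4.26%, and those without Ptprc that met neither condition in 9.22 and 3.4%. On high fat diet in run B members and endothelial-only barcodes were close, at 2.86 and 2.55% in mesentery. In adipose they were at 4.0% (1 barcode) and 3.47%. Without called doublets the share of members was 30.9% in mesentery on chow B and 59.5% in adipose on chow B, and 62.0 and 71.5% within capillary-marked barcodes.

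Expression within members could not be tested between conditions, because each group had 1 library with at least 10 of them. The values below are therefore single libraries of run B, with exact Poisson 95% intervals that cover counting error only. The comparisons share libraries, and values of endothelial-only barcodes stand beside some of them. Cfd, Car3, Adipoq, Cidec, Pecam1 and Cdh5 are genes of the rule and chose the members in every library. Their values, intervals and overlaps below therefore depend on that choice and are given as levels only.

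Between the tissues on chow, members of adipose and mesentery were close in most genes: of 8768 counted, 67 (0.764%) had a log2 ratio of 1 or more in adipose and 148 (1.69%) in mesentery. In endothelial-only barcodes the shares were 3.03 and 4.18% of 9173 genes. Nkx2-3, a transcription factor of visceral endothelium, had 0 UMIs in members of adipose and 288 in those of mesentery (40.5 CPM, interval 36 to 45.5), at least 336-fold higher in mesentery with 3 UMIs as the floor. It was at 0 and 135 CPM in endothelial-only barcodes. Glycam1, a mucin-like ligand of L-selectin, had 0 UMIs and 71.5 CPM, at least 592-fold higher in mesentery, and 0.111 and 3360 CPM in endothelial-only barcodes. Among adipocyte genes, Fasn was at 168 CPM (163 to 173) in adipose and 554 (537 to 572) in mesentery, Scd1 at 953 and 1904, and Angptl8, an insulin-induced secreted regulator of Lpl, at 12.7 and 57.3. Lep was higher in adipose, at 53.2 CPM (50.4 to 56.2) against 29.3 (25.4 to 33.6). Medag, at 58.4 and 11.5 CPM, led in adipose and did so in endothelial-only barcodes too, at 33.7 and 3.1. Fabp4 (55670 and 44270 CPM), Cd36 (5798 and 4821) and Gpihbp1 (3319 and 2392) were close in members, with log2 ratios of 0.33, 0.27 and 0.47. These genes were further apart in endothelial-only barcodes, at 1.61, 1.26 and 1.8. Capillary-marked barcodes were 83.8 and 80.7% of members in adipose and mesentery, but 49.4 and 23.2% of endothelial-only barcodes. The part of this makeup in the ratios and in the shares of genes above was not tested.

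Between the diets in mesentery, of 8968 genes 204 (2.27%) had a log2 ratio of 1 or more on high fat diet and 519 (5.79%) on chow. In endothelial-only barcodes the shares were 3.16 and 6.97% of 9112 genes. Cyp2e1, a monooxygenase of liver and fat, had 0 UMIs in the 105 members on high fat diet, at least 34.9-fold lower than the 119 CPM of chow. Fasn was at 17.1 CPM (9.57 to 28.2) against 554 on chow, and Cdo1 at 17.1 against 375.5. Of the genes of the rule, Cfd was at 104 CPM (83.6 to 127) against 4459 on chow. Adipoq was at 129 CPM (106 to 155) against 585 and Cidec at 128 (105 to 154) against 296. Lep went the other way, at 37.6 CPM (25.9 to 52.9) against 29.3 (25.4 to 33.6), with intervals that overlap. The summed adipocyte genes outside the rule were at 547 CPM against 2638 on chow in members, and at 311 and 336 in endothelial-only barcodes. Of endothelial genes, Pecam1 was at 1160 and 1192 CPM and Cdh5 at 2153 and 1690. Angptl4, an inhibitor of Lpl, was at 358 CPM (interval 320 to 400) against 104 on chow, and at 296 and 44.0 in endothelial-only barcodes.

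Between the diets in adipose, only 25 members stood against 3087. Of the genes of the rule, Car3 was at 877 CPM (737 to 1040) on high fat diet and 4080 on chow. Cfd was at 259 (186 to 351) and 2640, Adipoq at 145 (91.9 to 218) and 420, and Cidec at 233 (164 to 322) and 267 CPM. Outside the rule, Plin4 was at 82.0 (43.7 to 140) and 77.9, with intervals that overlap. Scd1 was at 486 (383 to 607) and 953. Of 9114 genes 715 (7.85%) had a log2 ratio of 1 or more on high fat diet and 1250 (13.7%) on chow, with few UMIs behind each value of the 25 members. In endothelial-only barcodes the shares were 0.859 and 2.92% of 8849 genes. The macrophage genes summed to 555 CPM in these 25 members and 218 in endothelial-only barcodes of the library, and Lyz2, at 410 CPM against 6.04 on chow, led the list. Its part in the other values was not tested.

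Between the tissues on high fat diet the same 25 members of adipose stood against the 105 of mesentery. Of 9116 genes 897 (9.84%) had a log2 ratio past 1 in adipose and 1258 (13.8%) in mesentery, against 0.477 and 0.419% of 8601 genes in endothelial-only barcodes. Scd1 was at 486 CPM (383 to 607) in adipose and 149 (125 to 177) in mesentery. Cdo1 was at 18.9 (3.9 to 55.3) and 17.1 (9.57 to 28.2), with intervals that overlap. Of the genes of the rule, Cfd was at 259 (186 to 351) and 104 (83.6 to 127), and Adipoq at 145 (91.9 to 218) and 129 CPM (106 to 155).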

How the data were processed

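The authors deposited UMI count matrices, raw counts per gene and barcode, for 8 libraries (4 groups, 2 runs, 10x 3′ kit version 3.1). Per the file headers, run A was made with Cell Ranger 3.0.2 and run B with 5.0.0, and the submitters' processing notes name Seurat 4.3.0 and mm10. Barcodes with at least 500 UMIs, 300 genes and at most 10% mitochondrial UMIs were kept. Counts of the 30406 shared gene identifiers were summed per class and library and scaled to CPM, with 1 CPM added before logs. Genes were counted at 10 CPM or more in either class and named among the highest and lowest at 50 CPM or more, or from lists. Shares were compared with exact permutation tests over libraries. The planned edgeR tests within members were not run, because 1 library per group held at least 10 members. The gene lists, the members and the subtype marks were chosen with earlier results of these data known. The summing and calling were tested on simulated counts. Total depth was 3461360 to 36779289 UMIs per library. Python 3.11.15, numpy 2.4.6, scipy 1.17.1, pandas 2.3.3 and scanpy 1.11.5 were used. Of 12 outside adipocyte genes 11 were measured, and Ccl21a was left out because 2 identifiers carry its name. Alternatives were thinning, other detection limits, a larger pseudocount, a split of the UMIs, summing over libraries and leaving out each library.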

Additional observations from a re-analysis of the deposited data

How the results depend on the processing

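The diet difference in the share kept its sign under all 18 alternatives run, between -3.683 and -0.8383 on the logit scale when 1 library was left out, and the block by run (replicate block) gave an exact p of 0.125. The tissue difference, 0.53, gave an exact permutation p of 0.625 with the block. It was reversed to -0.4554 by thinning and to -0.2395 in run B alone, and ran from -0.8922 to 1.953 without 1 library, below 0 without mesentery chow A, mesentery high fat A or adipose chow B (-0.8288, -0.4851 and -0.8922); the cause was not tested. The 55 genes higher in members than in endothelial-only barcodes became 108 with at least 4 adipocyte genes and 97 with split UMIs. Both of these settings had only 3 libraries in which a call had to agree. The 55 became 34 with 5 CPM added, 246 with counts summed over libraries, and 54 to 92 without 1 library (92 without mesentery high fat B). The 163 lower genes became 427 summed, 1 within capillary-marked barcodes, and 142 to 265 without 1 library (265 without adipose high fat B). The 1566 genes higher than in adipocyte-only barcodes became 2210 to 2416 with 1 library in place of 2. Within capillary-marked barcodes the capillary median was -0.08 and the venous one 0.25, both of the other sign. The mark was set from these same lists, so these medians depend on it. The adipocyte genes within 1.5 times of equality went from 25 of 30 to 26 of 32 in mesentery and from 23 of 26 to 24 of 28 in adipose with the other entry rule. The planned DESeq2, normalization, filter, block and leave-one-out fits within members were not run, since 1 library per group had enough of them. Adipose on high fat diet B had 25 members, so single genes there rest on few UMIs.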

Other observations

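Part of the adipocyte RNA lay in barcodes that the filters took out. They held 16.3% of the UMIs of the 6 adipocyte genes in mesentery on chow B, 10.3% in adipose on chow B, 9.85% in mesentery on high fat diet B and 7.71% in adipose on high fat diet B. In the run A libraries, where these barcodes held 17 to 63 such UMIs, the share was 39.2 to 77.3%.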
